A study of Mus musculus with 26 samples.

Results

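Distal chromosome 7 of the mouse, from chr7:41560001-145360000 of the mm10 build, stood apart in a single blastomere of an 8-cell embryo. Many of its bins there carried the state that marks replicated DNA, while the other bins measured carried almost none. The region was chosen by those DNA calls in cell 011, with its limits set at the bin where the calls began and at the last bin of the chromosome in the table. It holds 2570 of the 51976 bins of 40 kb in the table of binarized replication states, and 2971 of the 55487 genes in the RNA table lie wholly within it. The DNA calls of cell 011 in the region are therefore given as a description only. The rule itself uses neither RNA nor the DNA of the other 8 cells, but it was written with earlier results of these data known.

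The study sequenced DNA and RNA of the same single cell by scRepli-RamDA-seq, in which genomic DNA is held on magnetic beads for whole-genome amplification while the RNA in the supernatant is read as full-length total RNA. Blastomeres of untreated 8-cell embryos, obtained by in vitro fertilization of C57BL/6 gametes, were picked by hand. Embryo 1 gave the 3 cells with the closing numbers 011, 020 and 021, and embryo 2 gave the 6 cells 016, 017, 022, 023, 024 and 025. The study's sample list gives cells 011, 016 and 017 one variant of the protocol and the other 6 cells another, which differ in the volume of lysis buffer and in the handling of RNA. By the classes used in processing, embryo 1 held cells outside S phase, with abnormal stretches of chromosome left aside, and embryo 2 cells in S phase. Each cell is a single library of each kind, each embryo is a single animal, and cell 011 has no replicate, so a value of cell 011 was set against the spread over the other cells and no p-value was computed.

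DNA replication starts early in gene-rich, transcribed domains and late in gene-poor, silent domains, and the order in which domains are copied is the replication timing programme. In a single cell in S phase, bins that have been copied give more reads than bins that have not, and a model with a lower and a higher copy state turns the read density of each bin into the call unreplicated or replicated. A replicated call is thus a call of the higher copy state, whatever raised it. Distal mouse chromosome 7 carries imprinted clusters, the beta globin genes, large arrays of olfactory receptor genes and many housekeeping genes.

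Promoters of expressed and of silent genes of the region differed in their content of CG dinucleotides, and examples of both are shown. The 250 bases before the RefSeq start (GRCm38.p6, given on the gene's strand from 5′ to 3′, with every CG dinucleotide in capitals) are printed for a pair of expressed genes replicated in 5 or 6 of the 6 embryo 2 cells, and for a pair of genes replicated in 0 of them that did not pass the RNA filter described further on. Plk1 (chr7:122159185-122159434, plus strand) encodes a mitotic kinase and Rrm1 (chr7:102441445-102441694, plus strand) a subunit of ribonucleotide reductase, the enzyme that makes deoxyribonucleotides. Agbl1 (chr7:76229637-76229886, plus strand) is a long gene of the carboxypeptidase family and Vmn2r75 (chr7:86171725-86171974, minus strand) a vomeronasal receptor gene.
Plk1: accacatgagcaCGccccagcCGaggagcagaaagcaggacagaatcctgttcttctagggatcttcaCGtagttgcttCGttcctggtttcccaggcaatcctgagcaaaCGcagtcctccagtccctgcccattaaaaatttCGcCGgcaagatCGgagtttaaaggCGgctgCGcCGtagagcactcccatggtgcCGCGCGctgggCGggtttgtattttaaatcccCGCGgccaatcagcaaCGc
Rrm1: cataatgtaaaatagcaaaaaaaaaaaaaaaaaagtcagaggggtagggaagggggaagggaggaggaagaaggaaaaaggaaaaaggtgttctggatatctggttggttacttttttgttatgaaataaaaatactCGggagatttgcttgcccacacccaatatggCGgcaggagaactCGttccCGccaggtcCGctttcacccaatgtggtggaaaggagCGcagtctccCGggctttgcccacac
Agbl1: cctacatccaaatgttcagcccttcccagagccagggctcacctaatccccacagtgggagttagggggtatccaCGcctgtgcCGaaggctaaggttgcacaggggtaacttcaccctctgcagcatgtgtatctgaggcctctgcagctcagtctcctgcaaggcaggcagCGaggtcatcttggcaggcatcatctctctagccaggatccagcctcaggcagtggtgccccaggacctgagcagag
Vmn2r75: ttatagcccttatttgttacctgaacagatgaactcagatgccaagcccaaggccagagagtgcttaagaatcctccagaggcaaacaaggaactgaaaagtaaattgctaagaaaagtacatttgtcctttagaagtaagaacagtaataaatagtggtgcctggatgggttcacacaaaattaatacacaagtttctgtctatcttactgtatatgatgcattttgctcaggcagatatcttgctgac

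The Plk1 promoter held 18 CG dinucleotides, that of Rrm1 7, that of Agbl1 3 and that of Vmn2r75 0, while GC content was highest in Agbl1 (58.8%), then Plk1 (56.4%), Rrm1 (46%) and Vmn2r75 (38.4%). Over the 1013 protein-coding genes of the region with a RefSeq promoter, 42.3% had at least 10 CG dinucleotides in this window. Among the 410 of them that passed the RNA filter the share was 75.1%, and among the 603 that did not it was 20.1%. By timing, the share was 44.5% for the 660 genes replicated in all 6 embryo 2 cells, close to that of all genes, and 7.69% for the 26 genes replicated in 0, with a mean GC content of 54.0% ± 11.3 (SD) and 38.6% ± 9.59. Promoters of the 200 olfactory receptor genes, many of which were replicated in all 6 cells, held 0 to 4 CG dinucleotides.

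In cell 011, 1428 of the 2570 bins were called replicated (55.6%) and 1142 unreplicated. The calls began at chr7:41560001-41760000 with a stretch of 5 bins, just after a run of 134 uncalled bins that ended at the limit. On proximal chromosome 7, 10 bins were called, and 400 bins were called on the other 16 chromosomes measured. Their shares lay between 0.352% on chromosome 4 and 2.93% on chromosome 8. Chromosomes 6, 10 and X have no bins among the replication states. Of all bins measured, 3.54% were called in this cell, and 77.7% of those calls lay in the region. The other cells of embryo 1 had 25 (cell 020) and 0 (cell 021) called bins there, which is 0.973% and 0% of the bins with a state. Of the 25 bins of cell 020, 24 were also called in cell 011.

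**Figure D1:**
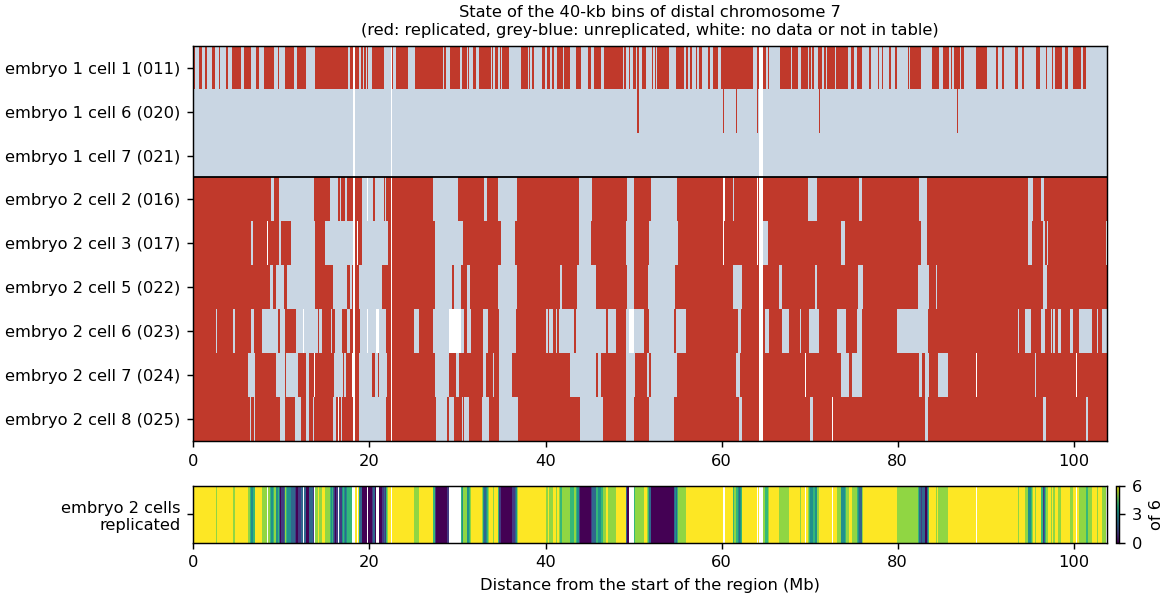
State of each 40-kb bin of distal chromosome 7 in the 9 cells, against the distance from the start of the region in Mb; red marks replicated, grey-blue unreplicated and white no data, and the lower strip counts the embryo 2 cells in which the bin was replicated. Cell 011 alternates between short called and uncalled stretches over nearly the whole region, cells 020 and 021 are almost uncalled, and the embryo 2 cells share long blocks.

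The calls of cell 011 did not form a solid block. They fell into 116 called stretches with a median length of 7 bins (280 kb), separated by 115 uncalled stretches with the same median. In the embryo 2 cells the region had 27 to 50 replicated stretches, with medians between 16.5 and 43 bins. The longest called stretch of cell 011 covered 79 bins (3.16 Mb), whereas the longest replicated stretch of an embryo 2 cell covered between 168 and 324 bins (6.72 to 12.96 Mb). Calls were densest in the 10-Mb windows from 50, 60 and 100 Mb of the chromosome, at 70.1%, 70.2% and 70.2% of the bins, and fell off towards its end, to 44.4%, 36% and 32.8% in the windows from 120, 130 and 140 Mb. The longest uncalled stretch, of 61 bins (2.44 Mb), was the last of the chromosome, chr7:142920001-145360000. In that last stretch every bin with a state was replicated in cells 016, 017, 022 and 024, 90.2% were in cell 025 and 47.5% in cell 023.

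The 4 longest called stretches covered gene deserts and clusters as well as expressed genes. The stretch chr7:66800001-69960000 held 10 protein-coding genes, among them Igf1r, the receptor of insulin-like growth factors, and Mef2a, a transcription factor gene, and 4 of the genes in it passed the RNA filter. The embryo 2 cells had replicated 39 to 58 of its 79 bins. The stretch chr7:102600001-105160000, of 64 bins, held 138 protein-coding genes, most of them olfactory receptor, beta globin and Trim genes, and 8 of the genes in it passed the RNA filter. It began within the olfactory receptor genes Olfr552 to Olfr554 and ended at Olfr681 to Olfr684. The stretch chr7:56920001-59160000, of 56 bins, began inside Gabrg3, a subunit gene of the GABA receptor, and none of the genes in it passed the filter. The stretch chr7:88280001-90440000, of 54 bins, began at Ctsc and held Eed, a core subunit gene of Polycomb repressive complex 2, and Picalm, a gene of clathrin-mediated endocytosis.

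In embryo 2 the region showed normal early and late domains. The share of bins replicated was 78.9% in cell 016, 78.7% in cell 017, 76.5% in cell 022, 59.8% in cell 023, 77.5% in cell 024 and 81.7% in cell 025, a mean of 75.5% ± 7.87 (SD, n = 6 cells). Cell 023 lay below the other cells of its embryo, and it did so on the other chromosomes too, where the 6 shares ran from 62.2% to 80.5%. A state was available in every embryo 2 cell for 2477 bins, of which 50.1% had been replicated by all 6 cells and 9.33% by 0, against 48.2% and 8.05% on the other chromosomes and 77.5% and 2.37% on proximal chromosome 7. Without cell 023 the share replicated in every remaining cell was 64.0%. Mean GC content rose from 38.1% ± 1.95 (SD over bins) in the 231 bins replicated in 0 cells to 44.6% ± 3.62 in the 1241 replicated in all 6.

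The longest late block, replicated in 0 of the 6 cells, was chr7:93600001-96160000, of 64 bins, and the longest early block, replicated in all 6, was chr7:130560001-135200000, of 116 bins. Cell 011 called 38 of the 64 bins of the late block and 45 of the 116 bins of the early block.

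Across the region the calls of cell 011 did not follow this timing. Of the bins replicated in all 6 embryo 2 cells 52.6% were called in cell 011, and of those replicated in 0 of the cells 56.3% were. In between, the share was 45.1% for bins replicated in 1 cell, 53.7% in 2, 64.2% in 3, 58.7% in 4 and 58.7% in 5. The state of cell 011 was the same as that of an embryo 2 cell in 49.9% to 53.9% of the bins, while the 15 pairs of embryo 2 cells had the same state in 70.5% to 90.2% (mean 82.6% ± 7.14, SD over pairs that share cells). In each of the 6 embryo 2 cells, the bins it had replicated and the bins it had not were called in cell 011 at close shares, of 54.3% to 55.8% and 54.4% to 57.6% over the 6 cells.

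The share of bins called in cell 011 was lower where GC content was high. When the bins were put in 5 equal groups of rising GC content, 62.3%, 65.6%, 58.0%, 49.8% and 42.2% were called, while the share replicated in all 6 embryo 2 cells went from 17.6% in the first group to 71.7% in the last. Called bins had a mean GC content of 42.4% ± 3.88 (SD, n = 1428 bins) and uncalled bins 43.7% ± 4.26 (n = 1142). Within the class replicated in all 6 cells the means were 44.1% and 45.2%, within the class replicated in 1 to 5 they were 41.6% and 43.1%, and within the class replicated in 0 they were 37.9% and 38.4%, so that called bins had the lower GC content in each. The spread within each group, of 1.47 to 4.15 points, was wider than these differences. The part of base composition in the calls was not tested.

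RNA gave a measure that the choice of the region had not used. TPM is transcript abundance scaled for gene length and to a fixed total per cell. All 10 genes listed as early embryo markers had more than 1 TPM in each of the 9 cells. Among them were Nanog, Pou5f1, Obox6 and the oocyte gene Zp3. Of 8 cumulus and granulosa cell markers 6 were at 0 throughout. A gene passed the filter when its TPM was above 1 in more than 50% of the cells, which left 562 genes of the region (486 of them protein-coding) and 10548 nuclear genes outside it; 1715 genes of the region were at 0 in every cell. For each gene the difference of a cell was its log2(TPM + 1) less the median over the other 8 cells, and the median over the genes of the region was set relative to the median over all genes outside. Each cell was compared with the other 8, so these values share reference cells.

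Distal chromosome 7 genes had more RNA in cell 011 than in the other cells. The median relative difference was 0.47 on the log2(TPM + 1) scale, which is 1.39-fold. In the other cells it was −0.05 in 020, 0.16 in 021, −0.01 in 016, −0.02 in 017, −0.15 in 022, 0.00 in 023, −0.14 in 024 and −0.10 in 025, a mean of −0.04 ± 0.10 (SD, n = 8 cells). Cell 011 thus lay above all the other cells, and cell 021 of the same embryo was the next. Before subtraction of the genes outside, the medians were 0.73 in cell 011 and between −0.29 and 0.26 in the other cells. The genes of the region took 6.57% of the nuclear TPM in cell 011 and 5.10% to 5.70% in the others.

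Of the 562 genes, 190 (33.8%) were higher in cell 011 than in each of the other 8 cells. Over all 11110 nuclear genes that passed the filter that share was 16.5%, and cell 011 also had the largest number of genes above 1 TPM (13244), followed by cells 016 (12908) and 017 (12339) of the same protocol variant, with 10998 to 11893 in the other 6 cells. Cell 016 had 16.1% of all nuclear genes at their highest, but 10.9% of the genes of the region. The part of that larger number in the count was not tested. In the other cells 6.23% to 13.5% of the genes of the region were at their highest. Only 7 genes (1.25%) were lowest in cell 011, against 4.73% of all nuclear genes, and 82.0% lay above the median of the other cells, against 63.6% of the genes outside. With all 1256 genes whose TPM was above 0 in at least 1 cell, the relative difference was 0.29, and the median difference of each other cell was 0.

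**Figure D2:**
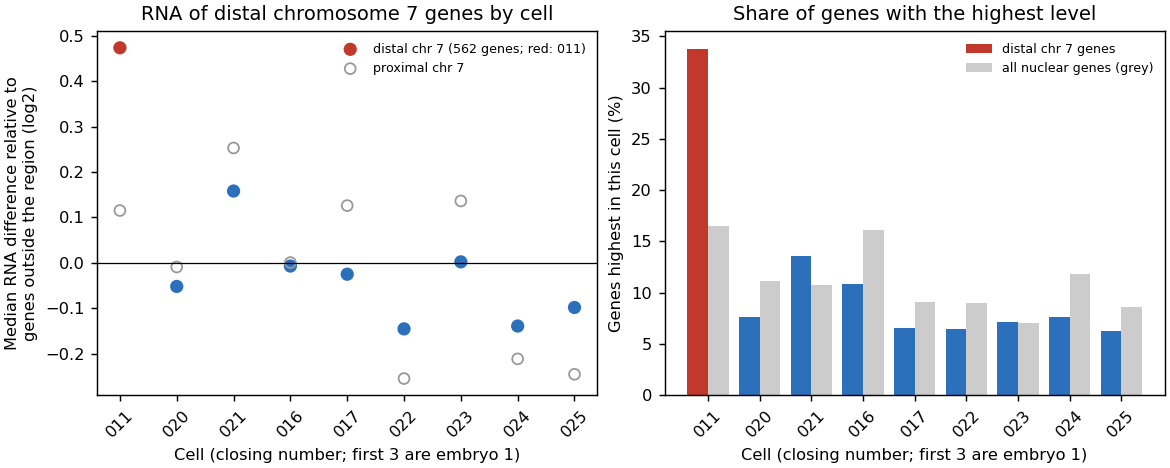
Left, median RNA difference of distal (filled) and proximal (open) chromosome 7 genes in each cell relative to genes outside the region, on the log2(TPM + 1) scale; right, percent of genes with their highest level in that cell, for the region and for all nuclear genes. Cell 011, in red, lies at 0.47 and 33.8%, above the other 8 cells.

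The shift was larger in the region than on proximal chromosome 7 and on every other autosome of the same cell. Proximal chromosome 7 genes, 300 in number, had a relative difference of 0.12 in cell 011, within the range of the other cells (−0.25 to 0.25). The other 18 autosomes of cell 011 lay between −0.29 on chromosome 18 and 0.06 on chromosome 19, and the share of genes highest in cell 011 was at most 18.7% on them, on chromosome 8. Of the 162 values of these autosomes in all 9 cells, 2 were as far from 0, both downwards, at −0.69 and −0.57 for chromosome 10 in cells 020 and 023. Chromosome X of cell 011 lay at 0.32. It was higher in the cells of embryo 1 (0.22 to 0.51) than in those of embryo 2 (−0.30 to 0.03). Neither chromosome 10 nor chromosome X has bins with a replication state here.

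**Figure D3:**
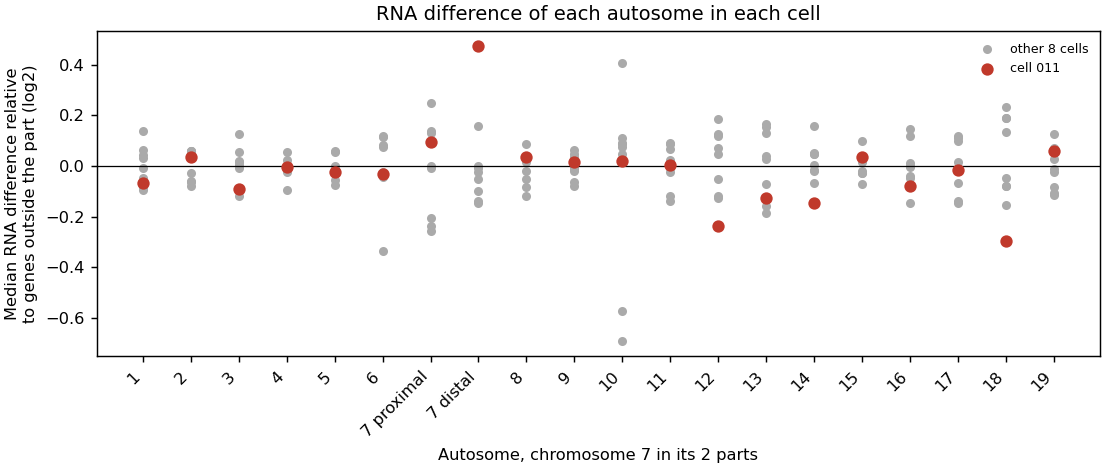
Median RNA difference of each autosome, with chromosome 7 in its proximal and distal part, relative to genes outside that part, on the log2(TPM + 1) scale, with cell 011 in red and the other 8 cells in grey. Distal chromosome 7 is the highest red point at 0.47, and the lowest values are chromosome 10 in cells 020 and 023.

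The difference held against each set of reference cells. Against cells 016 and 017, the other cells with closing numbers from 011 to 017, which the study's sample list gives the same variant of the protocol, the relative difference was 0.44. Against cells 020 and 021 of the same embryo it was 0.35, and against the 6 embryo 2 cells 0.53. When each of the 8 other cells was left out in turn it stayed between 0.44 and 0.52.

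The RNA difference was spread along the region. In windows of 10 Mb, those from 60 to 140 Mb of the chromosome gave relative differences of 0.32 to 0.61 in cell 011, each above all the other 8 cells, and the window from 40 Mb gave 0.53, also above them. The window from 50 Mb, with only 13 genes, gave −0.32, within a range of −0.68 to 0.81 in the other cells, and the last window, from 140 Mb, gave 0.23, below the 0.50 of cell 021. On the proximal side, the 4 windows up to 40 Mb gave −0.03, 0.05, 0.28 and 0.13, none above all other cells. Among the windows with at least 20 genes, 9 of the 10 from 40 Mb on had a difference of 0.3 or more in cell 011, against 3 of 179 on the other autosomes. In the other 8 cells 0 of these 10 windows reached 0.3, except in cell 021, where 2 did.

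**Figure D4:**
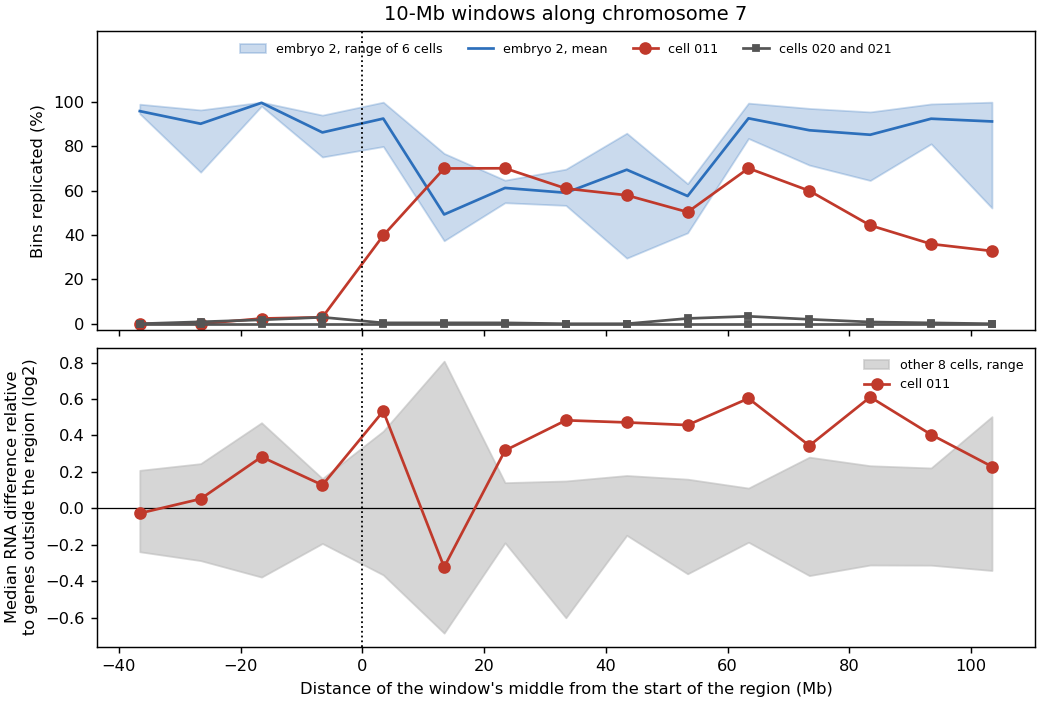
Percent of bins replicated (top) and median relative RNA difference on the log2(TPM + 1) scale (bottom) in 10-Mb windows of chromosome 7, against the distance from the start of the region (dotted line), with the mean and range of the embryo 2 cells in blue, cells 020 and 021 in dark grey, and the range of the other 8 cells as a grey band. Cell 011 (red) has a higher share of replicated bins in every window to the right of the dotted line than to its left. Its RNA lies above the range of the other 8 cells in most windows of the region. It does not in the window with 13 genes nor in the last.

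RNA was higher in cell 011 for genes in called and in uncalled bins. The 260 genes whose every bin was called in cell 011 had a relative difference of 0.43, with the other cells between −0.16 and 0.11, and 33.8% of them were highest in cell 011. The 258 genes whose every bin was uncalled had 0.53, with the other cells between −0.28 and 0.23, and 34.1% of them were highest. The spread of the other cells was 0.09 (SD, n = 8 cells) for the first group of genes and 0.18 for the second, and the difference between the groups was not tested. For the 14 genes of the last uncalled stretch the relative difference was −0.12, within the wide range of −0.56 to 0.60 in the other cells, while the 55 genes in the 5 Mb before it gave 0.39, with the other cells between −0.37 and 0.53. At the start of the region, the 11 genes in the 5 Mb before it gave −0.01 and the 82 genes in the first 5 Mb of it 0.58. With so few genes before the region and in its last uncalled stretch, the RNA does not place the ends of the difference closely.

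The named lists of genes were read against all 562 genes of the region, of which 73.3% lay above the median of genes outside and 33.8% were highest in cell 011, with the median of 0.47. Genes of the cell cycle and DNA replication shared this shift. All 19 listed genes in the region passed the filter, 16 (84.2%) had a difference above the median of genes outside the region, 9 (47.4%) were highest in cell 011 and 0 were lowest, with a median relative difference of 0.37. Plk1, whose promoter is printed above, stood at 257 TPM in cell 011, 65.7 in 020, 95.3 in 021, 119 in 016, 104 in 017, 81.3 in 022, 88.8 in 023, 99.7 in 024 and 73.64 in 025. Its level in cell 011 was above all the others, while both its bins were uncalled there. Rrm1 stood at 209 TPM in cell 011, 85.1 in 020, 99.2 in 021, 147 in 016, 92.6 in 017, 98.0 in 022, 90.6 in 023, 106 in 024 and 197 in 025, so that cell 025 came close to it. Bub3, a gene of the spindle checkpoint, had 120 TPM in cell 011 and 37.7 to 87.2 in the others. Prc1, which organises the midzone of the spindle, had 315 TPM against 158 to 257, and Gtf2h1, a subunit gene of the factor TFIIH of transcription and DNA repair, had 96.9 against 47.3 to 69.8. Pold3, an accessory subunit gene of DNA polymerase delta, was within the range of the other cells, at 238 TPM against 112 to 275. Polg and Fanci, for the mitochondrial DNA polymerase and a Fanconi anaemia protein, had 51.7 TPM against 7.72 to 30.6 and 31.5 against 7.14 to 20.6, and these genes overlap, so that reads may be shared between them.

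Genes of chromatin and transcription were close to the region as a whole. Of 18 listed genes 16 passed the filter, 13 (81.2%) lay above the median of genes outside, and 5 (31.2%) were highest in cell 011, with a median relative difference of 0.50. Ino80e, a subunit gene of the INO80 remodelling complex, had 88.1 TPM in cell 011 and 10.3 to 40.4 in the others, and Prmt3, an arginine methyltransferase gene, had 73.2 against 13.8 to 51.1. Ctbp2, a corepressor gene, had 93.2 TPM, just above the 88.5 of cell 016. Eed went the other way without leaving the range, at 145 TPM against 111 to 372, and both its bins lay in a called stretch.

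Of 17 listed genes of energy metabolism and mitochondria 12 passed the filter, 9 (75%) lay above the median of genes outside and 6 (50%) were highest in cell 011, with a median of 0.36, below that of the region. Mrpl17, a protein gene of the mitochondrial ribosome, had 347 TPM against 99.4 to 244, Uqcrc2, of respiratory complex III, 122 against 49.3 to 80.0, and Idh2, the mitochondrial isocitrate dehydrogenase gene, 143 against 25.4 to 115. Ndufc2 and Ndufab1, of complex I, lay within the range of the other cells.

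The 9 ribosomal protein genes, among the most abundant RNAs of the region, differed little. Their median relative difference in cell 011 was 0.03, with 5 above the median of genes outside. Rpl13a had 2669 TPM against 1986 to 3914, and Rplp2 4384 against 2557 to 5618. The 72 ribosomal protein genes outside the region had a median of −0.26 in the same cell. Ribosomal protein genes have many processed pseudogenes, and the split of reads among the copies is uncertain.

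Of 14 listed genes of growth factor, Wnt and Hippo signalling 8 passed the filter, 4 lay above the median of genes outside and the same number were highest in cell 011, with a median of 0.24, below that of the region. Tead1, a DNA-binding partner of the Hippo effector Yap, had 24.1 TPM against 1.33 to 18.4, and Rras2, a Ras family GTPase gene, 65.1 against 16.9 to 56.0. Hras had 95.05 TPM against 38.4 to 156. Fgf3 and Fgf4, ligand genes side by side in the last uncalled stretch, had 3.44 and 6.64 TPM in cell 011, and both were lower there than in cells 020 (14.5 and 26.1) and 021 (14.9 and 51.0) of the same embryo, but not than in every embryo 2 cell.

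Imprinted genes, expressed from only one parental allele in many tissues, did not share the shift as a list. Of 24 listed genes in the region 7 passed the filter (29.2%, beside 18.9% of all genes of the region), 3 lay above the median of genes outside, 2 were highest and 1 was lowest in cell 011, and their median relative difference was −0.37. Snrpn, a paternally expressed splicing factor gene, had 144 TPM in cell 011 and 49.0 to 92.1 in the others. Snurf, which lies inside the annotated span of Snrpn, was at 236 TPM in cell 011, 60.8 in 016 and 13 in 017. It was at 0 in the other 6 cells, which had the other protocol variant, and did not pass the filter. How reads were split between the overlapping genes is uncertain. Ube3a and Inpp5f, which both passed the filter, had relative differences of −0.66 and −0.82. Their levels in cell 011, 16.7 and 3.26 TPM, lay within the ranges of the other cells, 6.19 to 138 and 0.26 to 7.51. Cdkn1c, a maternally expressed inhibitor gene of the cell cycle, was named after its values were seen. It had 8.74 TPM in cell 011 and 0 to 2.29 in the others. Tssc4 was lowest in cell 011, at 3.78 TPM against 5.95 to 20.5, and Nap1l4, a histone chaperone gene, had 96.7 against 59.0 to 138. The last 3 lie in the last uncalled stretch.

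Clustered sensory and tissue genes were near silent in all cells. Of 236 olfactory receptor genes 173 were at 0 in every cell and 6 passed the filter; Olfr506 was the exception, with 218 TPM in cell 011 and 86.9 to 280 in the others. None of 21 vomeronasal receptor, 19 Mrgpr, 26 kallikrein and 5 beta globin genes passed the filter, and all 5 beta globin genes were at 0 in every cell. All 5 globin genes lay side by side in a single called stretch of cell 011, chr7:102600001-105160000. Of the 236 olfactory receptor genes, 162 had every bin called in cell 011, beside 55.6% of all bins of the region. These genes lie in clusters, so that many of them share a called stretch. Of 15 Trim genes 4 passed, and Trim6 had 201 TPM in cell 011 against 54.9 to 123.

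Among the genes that passed the RNA filter and had a mean of at least 10 TPM, the 8 that lay furthest above the other cells were selected on these values and are given as a description. Atg16l2, related to an autophagy gene, had 86.1 TPM in cell 011, 36.02 in 016, 17.8 in 017 and 4.84 to 15.1 in the other 6 cells. Ric8a, a chaperone gene for G protein alpha subunits, had 79.0 against 3.80 to 15.5, and Utf1, a transcription factor gene of pluripotent cells, 177 against 6.61 to 89.2. Vrk3 had 41.3 TPM against 6.86 to 20.1 and Fbrs 42.7 against 5.27 to 16.4. Tbc1d17 had 86.6 TPM, with 39.9 in 016, 40.2 in 017 and 11.2 to 29.4 in the other 6 cells. Atg16l2 and Tbc1d17 were thus higher in all cells of the protocol variant of cell 011. In the rest of this set, cells 016 and 017 were not both above the remaining cells. The 2 others, Gm45441 and Gm20274, are annotated as an antisense and a sense intronic RNA, whose reads cannot be told apart from those of the genes they overlap unless strand was used. Tmem41b, for a lipid scramblase of the endoplasmic reticulum, was among the 8 genes of the highest mean level and had 2989 TPM in cell 011 against 1344 to 2097.

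The 6 furthest below were chosen in the same way. Gm45507, an annotated antisense RNA, was at 0 in cell 011 and at 3.37 TPM in 016, 106 in 017 and 294 to 698 in the other 6 cells, so that the cells with closing numbers 011 to 017 were low as a set. Gm15500, a processed pseudogene, had 1815 TPM in cell 011 against 2445 to 3483. Anapc15, a subunit gene of the anaphase-promoting complex, had 38.5 against 56.8 to 121, 3110040N11Rik had 1.75 against 5.36 to 26.1, and LTO1 had 29.2 against 29.8 to 64.2. Tssc4, given above, was the remaining gene.

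**Figure D5:**
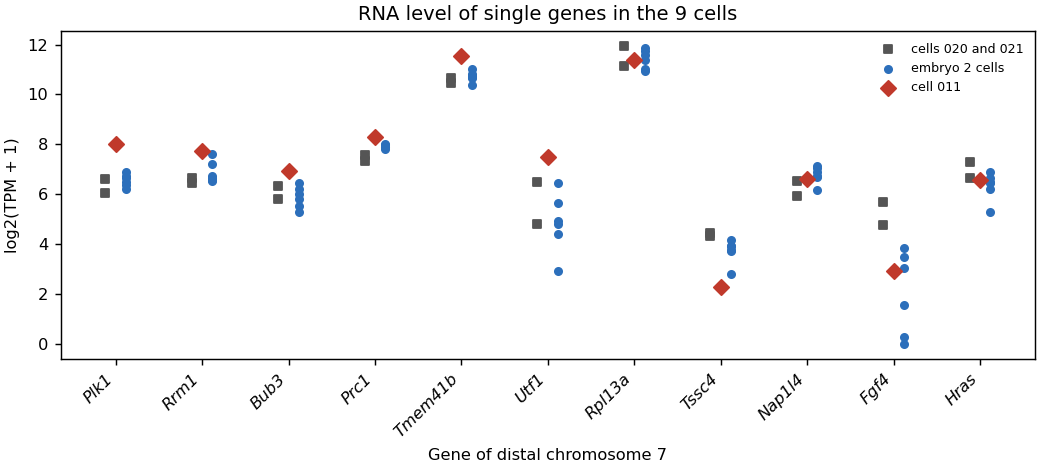
RNA level, as log2(TPM + 1), of 11 named genes of distal chromosome 7 in cell 011 (red diamond), cells 020 and 021 (grey squares) and the 6 embryo 2 cells (blue circles). Plk1, Rrm1, Bub3, Prc1, Tmem41b and Utf1 are highest in cell 011, Tssc4 is lowest there, and the other 4 lie within the range of the other cells.

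Across genes of the region, RNA level was higher for those replicated in 5 or 6 embryo 2 cells than for those replicated in fewer. Filter and level used all 9 cells, cell 011 included. Of the 821 protein-coding genes replicated in all 6 embryo 2 cells, by the majority of each gene's bins, 42.5% passed the RNA filter, and of the 291 replicated in 5 cells 43.3% did. For genes replicated in 4, 3, 2 and 1 cells the counts were 8 of 59, 0 of 30, 1 of 12 and 2 of 7, and for those replicated in 0 cells 0 of 31. The mean log2(TPM + 1) was 1.80 in the first class, 1.88 for genes replicated in 5 cells and 0.04 in the last. Of the 31 genes of the last class, 15 were olfactory receptor genes. The RNA difference of cell 011 was 0.49 for the 349 genes of the first class that passed the filter and 0.57 for the 126 of the second, and it was −0.02 for the 8 genes replicated in 4 cells.

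Most of the longest genes of the region had little or no RNA. Fgfr2, as annotated with a span of 2961 kb over other genes, was the exception: it was replicated in the majority of its bins in all 6 embryo 2 cells and had 38.1 TPM in cell 011 and 16.4 to 50.9 in the others. Dlg2, a synaptic scaffold gene of 1973 kb, had 20 of its 51 bins called in cell 011 and was at 0 TPM in every cell. Agbl1, of 895 kb, was replicated in the majority of its bins in 0 embryo 2 cells, yet 18 of its 24 bins were called in cell 011; it too was at 0 TPM throughout. Nell1, of 892 kb, had 20 of 23 bins called and Tenm4, of 740 kb, 14 of 19, and neither reached 1 TPM in any cell. Nav2, of 701 kb, had 4 of 19 bins called, with 0.93 TPM in cell 011 and 0.43 to 3.68 in the others. Fgfr2 had 36 of 75 bins called. Beside the 55.6% of all bins of the region called in cell 011, the shares of Fgfr2, Dlg2 and Nav2 were lower. Those of Agbl1, Nell1 and Tenm4 were higher. Of the 11 protein-coding genes spanning at least 500 kb, 1 passed the RNA filter.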

How the data were processed

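The deposited tables of 9 blastomeres were used. Per the study's methods, the authors aligned DNA reads to mm10 with BWA 0.7.17-r1188 and binarized 40-kb bins with AneuFinder; the deposited score of a bin is 1 (replicated), −1 (unreplicated) or 0 (no data). Embryo cells outside S phase, a class in which the study placed cells of embryo 1, served to correct mappability of the others. Whether cell 011 was among them, and which option of the model it was given, is not given in the sources used here. The RNA table holds TPM that the authors estimated with RSEM, which carries no read depth. The paper states that RNA reads were adjusted to a similar number per sample for its comparison with another method. The depth of each cell was not examined here. Each of the tables also has 14 columns that belong to no labelled sample, and these were not used. Columns were tied to samples by the closing number of their names. The names of all 9 RNA columns give the same embryo and cell, which differs from most of the sample titles. The embryo and cell of the RNA, and its pairing with DNA, therefore rest on the closing number alone.

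Gene positions came from GENCODE M21 (55141 of 55487 genes matched without version), GC content and promoters from RefSeq GRCm38.p6. Values were computed with Python 3.11.15, pandas 2.3.3 and numpy 2.4.6; the code was tested on simulated data. Percentages exclude bins without data. RNA used a pseudocount of 1 and TPM above 1 in more than 50% of the cells. Of the genes past this filter, those named were the 8 with the highest mean level and the 8 furthest above and 6 furthest below in cell 011. Those above and below lay outside the range of the other cells and had a mean of at least 10 TPM. Genes of fixed lists, genes at the ends of the longest called stretches and the 6 longest genes were named whether or not they passed. Other genes were named after their values were seen. The region, lists and genes were chosen with earlier results of these data known. Alternatives covered pseudocount, filters, gene sets, reference cells and leaving out each cell. Some items are not reported here.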

Additional observations from a re-analysis of the deposited data

Results flagged for a closer look

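Within the 6 embryo 2 cells, a value was set apart when its gap to the nearest other cell was too large a part of the range by Dixon's test at the 95% level, which chance gives in about 1 of 20 groups, and 7 quantities were examined. Cell 6 of embryo 2 (023) stood apart with 59.8% of the distal chromosome 7 bins replicated, and again with 47.5% of the bins of the last stretch of the chromosome; its 67 bins without data were the most of any cell. Cell 2 of embryo 2 (016) stood apart with 10.9% of the distal chromosome 7 genes at their highest level, beside 16.1% of all nuclear genes in the same cell. The 3 cells of embryo 1 are too few for this test.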

How the results depend on the processing

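Of 85 alternative values 14 moved, which for most results meant by more than the spread between cells. For the share of bins replicated in all embryo 2 cells it meant outside a 95% binomial interval. That interval takes bins as independent, though neighbouring bins of the same cells come in blocks, so it does not measure the spread between cells. The length of the longest called stretch had a rule of its own. Only the RNA differences could change sign, and 0 of them did. The share of genes highest in cell 011 was 40.4% with TPM above 1 in all 9 cells, 38.5% with a mean of at least 10 TPM, 36.4% for protein-coding genes and 25.3% with any TPM above 0, and the background over all genes moved with it, to 17.3%, 15.5%, 17.1% and 16.9%. With any TPM above 0 the RNA difference of the region was 0.35 and the relative difference 0.29. The relative difference was 0.35 against cells 020 and 021 only, and the difference 0.53 against cells 016 and 017 only. Leaving out 1 cell at a time gave 35.3% to 39.4% of genes highest, differences of 0.67 to 0.77, relative differences of 0.44 to 0.52, and 50.7% to 64.0% of bins replicated in all remaining embryo 2 cells, the last without cell 023. With gaps of up to 5 bins bridged, another stretch became the longest. It was chr7:55440001-59160000, of 93 bins with the bridged ones counted, in place of chr7:66800001-69960000, of 79 bins. Genes whose every bin was uncalled, an alternative chosen after seeing the data, gave a relative difference of 0.53. No paired analysis was possible because the values come from no test. Cell 011 is a single cell, TPM carries no read depth, and the cause of the calls was not tested.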

Other observations

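Chromosome 10 gave the largest RNA differences of any autosome, in cells other than 011. Its 521 genes had a median relative difference of −0.69 in cell 020, −0.57 in cell 023 and 0.41 in cell 022, on the log2(TPM + 1) scale, and 4.22%, 4.03% and 21.5% of them were at their highest level in these cells. Chromosome 6 gave −0.34 in cell 021, over 502 genes. In cell 011 the other autosome furthest from 0 had a lower value, −0.29, for the 248 genes of chromosome 18. These values have no replicate, and chromosomes 10 and 6 have no bins among the replication states.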
